A study of Mus musculus with 6 samples.

Results

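The 10 genes followed here cross-link, scaffold and process the cornified envelope, and were measured in esophagus RNA of tumor-bearing mice. They were chosen by symbol, and 10 of 10 were found among the 54232 gene IDs of the count tables. They comprise 4 transglutaminases (Tgm1, Tgm2, Tgm3 and Tgm5), the plakins Evpl and Ppl, the proteases Asprv1 and Casp14, and the late products Cnfn and Sbsn. There were 3 libraries from mice given DTA-1, which activates the T cell co-stimulation receptor GITR, and 3 from mice given an isotype control antibody. All mice, controls included, had drunk the carcinogen 4-NQO at 100 µg/ml for 16 weeks from 8 weeks of age followed by 12 weeks without it, which gives rise to squamous tumors of the esophagus. Antibody was given at 10 µg per intraperitoneal injection, 2 times a week from 2.5 weeks before sacrifice. The tissue was enriched for invading cells and still held muscle and stroma, so a bulk level mixes cell types. Strain, sex and whether each library is 1 mouse are not stated in the labels. A p-value therefore reflects only how these libraries vary, which may be technical.

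The cornified envelope is a protein shell that replaces the plasma membrane of squamous cells as they reach the surface, as they do in the keratinized esophagus of the mouse. Envoplakin and periplakin first form a scaffold under the membrane, and calcium-dependent transglutaminases then bond precursor proteins to it and to each other through a catalytic cysteine. Proteases of the uppermost layers process precursors as the shell matures.

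The libraries held 23147873 to 29065162 counts, of which 31120 to 65293 in DTA-1 and 91342 to 118793 in isotype libraries fell on the 10 genes. The lowest count of any of them was 115 (Tgm5 in DTA-1 replicate 2), far above the 3 reads used as a floor, so spread between libraries and not counting error limits the comparison. Markers of the labelled tissue were present: all 12 basal and suprabasal squamous markers were detected in every library. Single libraries stood apart. DTA-1 replicate 1 held 19035 CPM of 6 suprabasal squamous markers, within the isotype range of 18489 to 35044 CPM (reads scaled to library size by TMM, the unit used throughout). DTA-1 replicates 2 and 3 held 5478 and 5029 CPM. Krt13 alone gave 10436 CPM of the sum in DTA-1 replicate 1. By the mean log2 CPM of the same 6 markers, centred over the libraries, DTA-1 replicate 1 was below every isotype library (0.17 against 0.53 to 0.80). Glandular stomach markers summed to 1960 CPM in isotype replicate 3 and to 0.727 to 17.4 CPM in the other 5 libraries, and red cell markers to 2899 CPM in DTA-1 replicate 2 and to 85.1 to 172 CPM in the other 5.

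By fitted fold change 9 of the 10 genes were lower in DTA-1 libraries, against 52.9% of all genes tested, and 1, Tgm2, was higher. The median log2 fold change (DTA-1 over isotype) was -1.12 over the 10 genes and -0.03 over all 15763 genes tested. For 5 of the 10 genes all DTA-1 values were below all isotype values (Tgm1, Evpl, Ppl, Asprv1 and Cnfn), as it did for 9.38% of all genes tested. All DTA-1 values were above all isotype values for Tgm2 alone, as it did for 8.6% of all genes tested. For Tgm3, Tgm5, Casp14 and Sbsn the groups overlapped, with DTA-1 replicate 1 inside the range of the isotype libraries each time. In a bulk sample, fewer cells of a type and less RNA per cell cannot be told apart.

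None of the 10 genes passed edgeR's quasi-likelihood test, in which 0% of 15763 genes were called and 0.39 was the smallest adjusted p of any gene. By unadjusted p under 0.05 the count was 8 of the 10 (7 lower, 1 higher), against 12.7% of all genes tested, 7.52% lower and 5.21% higher. Limma-voom likewise called 0% and counted 8 of the 10 at the unadjusted level, against 13.8% of all genes tested. DESeq2 called 1 of the 10, Asprv1, where it called 1.12% of 16084 genes, 0.852% lower and 0.267% higher. In data simulated from these libraries with no gene changed, DESeq2 made 31 false calls and edgeR 1 among 15763 genes. Each setting was drawn a single time, gene by gene independently, with the spread that edgeR had estimated, so shifts of a whole library were not simulated. Within that limit, a call by DESeq2 alone, here and in what follows, is weaker evidence. With changed genes simulated, edgeR recovered 4% of 2-fold and 54% of 4-fold changes, and DESeq2 20% and 81%. The lack of an edgeR call therefore says little about changes near 2-fold. The labels do not say whether the replicate number pairs the libraries. Blocking on it, DESeq2 called 4 of the 10, all lower (Tgm3, Evpl, Asprv1 and Cnfn). The share over all genes was 2.08%, 1.82% lower and 0.257% higher. Without DTA-1 replicate 1, edgeR called 5 of the 10 lower (Tgm1, Tgm3, Evpl, Ppl and Sbsn, at adjusted p of 0.0302 to 0.042), against 3.69% of genes called, 3.31% lower and 0.38% higher. The same set of 5 libraries gave DESeq2 9 of the 10, all but Tgm2, against 16% of genes called, 10.5% lower and 5.48% higher. Without isotype replicate 3 DESeq2 called Asprv1 and Cnfn, against 6.1% of genes, 2.05% lower and 4.05% higher.

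**Figure D1:**
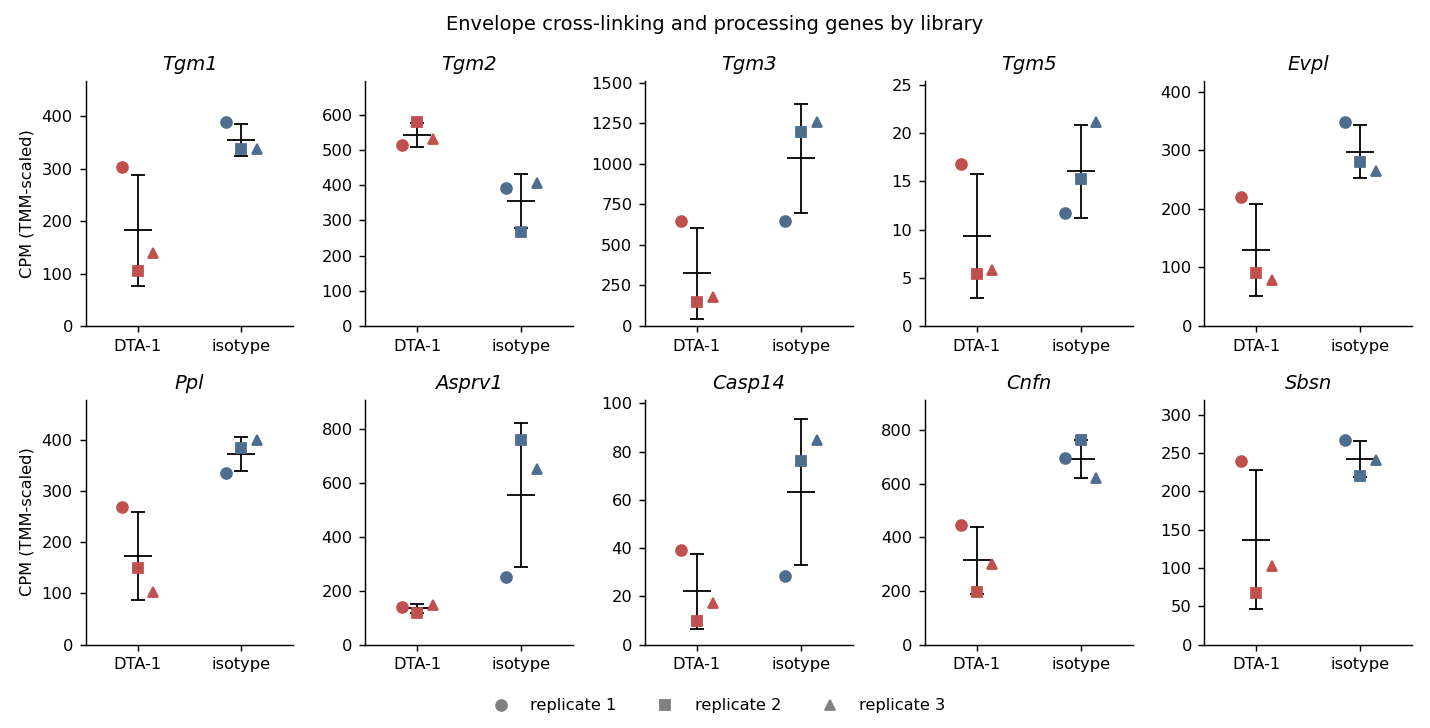
Level of each of the 10 genes (CPM, TMM-scaled, linear axis from 0) in the 3 DTA-1 libraries on the left and the 3 isotype libraries on the right of each panel; marker shapes give the replicate number, the dash the group mean and the bar 1 SD. The circle of DTA-1 replicate 1 is the highest DTA-1 point for the 8 lower genes other than Asprv1, where it lies between the others (141 against 116 and 145 CPM), and all 3 DTA-1 points are above the isotype points for Tgm2.

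The 4 transglutaminases share the cysteine at which they bond their substrates. The coding stretch of 51 bases around its codon is shown to let the family members be compared, with the cysteine codon in capitals. The stretches are those of Tgm1 at chr14:55709398-55709448 (minus strand, exon 7 of 15), Tgm2 at chr2:158131335-158131385 (minus strand, exon 6 of 13), Tgm3 at chr2:130029748-130029798 (plus strand, exon 6 of 13) and Tgm5 at chr2:121070736-121070786 (minus strand, exon 6 of 13), from GENCODE M21 transcripts on GRCm38, each written 5′ to 3′ along the gene.
Tgm1: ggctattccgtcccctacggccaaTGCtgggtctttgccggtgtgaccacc
Tgm2: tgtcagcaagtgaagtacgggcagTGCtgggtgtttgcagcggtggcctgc
Tgm3: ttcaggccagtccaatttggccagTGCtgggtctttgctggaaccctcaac
Tgm5: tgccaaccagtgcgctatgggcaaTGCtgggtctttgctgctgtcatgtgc
Even in this conserved stretch the genes matched at only 29 of 51 bases (Tgm2 and Tgm3) to 36 of 51 (Tgm2 and Tgm5). No run of 50 bases was shared between any of the 4, so reads of that length are not split between them.

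Tgm1 encodes the membrane-anchored keratinocyte transglutaminase (ENSMUSG00000022218, chr14:55700009-55713926). In order of replicate number it had 303, 105 and 139 CPM in the DTA-1 libraries, against 389, 338 and 337 CPM in the isotype libraries; later values keep that order. The groups did not overlap, though DTA-1 replicate 1 was closer to the isotype libraries than to the other DTA-1 libraries. The log2 fold change was -0.96 ± 0.39 (SE), with an edgeR adjusted p of 0.391.

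Tgm3 encodes the epidermal transglutaminase, a cytosolic proenzyme activated by cleavage (ENSMUSG00000027401, chr2:130012349-130050399). It stood at 649.8, 147 and 178 CPM in the DTA-1 libraries, against 648, 1199 and 1259 CPM in the isotype libraries. DTA-1 replicate 1 and isotype replicate 1 were nearly equal, DTA-1 replicates 2 and 3 were far below and isotype replicates 2 and 3 far above them. edgeR gave a log2 fold change of -1.67 ± 0.62, with an edgeR adjusted p of 0.39, and it was -2.67 ± 0.39 without DTA-1 replicate 1 (adjusted p of 0.0376).

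Tgm5, a transglutaminase of the upper squamous layers whose loss causes skin peeling in humans (ENSMUSG00000053675, chr2:121046111-121085841), was the scarcest of the 10. It stood at 16.8, 5.42 and 5.86 CPM in the DTA-1 libraries, against 11.7, 15.2 and 21.2 CPM in the isotype libraries. DTA-1 replicate 1 lay above 2 of the 3 isotype libraries. edgeR gave a log2 fold change of -0.78 ± 0.48, with an edgeR adjusted p of 0.484.

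Tgm2 encodes tissue transglutaminase, which many cell types outside the epithelium make, endothelium among them (ENSMUSG00000037820, chr2:158116402-158146436). It stood at 515, 579.97 and 532 CPM in the DTA-1 libraries, against 392, 267 and 406 CPM in the isotype libraries. The DTA-1 libraries agreed closely with each other, with a coefficient of variation of 6.22%, the smallest of the 10 genes, and all 3 were above the isotype libraries. The log2 fold change was 0.61 ± 0.23, with an edgeR adjusted p of 0.39. It ranged from 0.46 without isotype replicate 2 to 0.74 without isotype replicate 3, and it was 0.46 when libraries were scaled by their totals alone, a scaling that moved the median of all genes to -0.19.

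Counting can blur the Tgm2 value at its edge. The gene shares 370 exonic bases with Rprd1b on the opposite strand, and 18.7% of its windows of 50 bases also occur in Rprd1b or Gm20412 transcripts. The strand setting of the counting is not given in the sources used here, so those reads are uncertain. Rprd1b itself had 1128 to 1529 reads in DTA-1 and 1235 to 1854 in isotype libraries, against 11843 to 12431 and 7068 to 11254 for Tgm2. Smaller overlaps touch other members. Sbsn shares 279 exonic bases with Tmem147os on the same strand (6.96% of its windows). Tgm1 shares 182 with Gm49067 on the opposite strand (4.18% of its windows).

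Markers of other cell types differed in direction beside the higher Tgm2 level. Over all genes tested, 52.9% of fold changes were negative. All 6 endothelial markers had positive fold changes (median 0.38) and summed to 196 to 299 CPM in DTA-1 and 187 to 202 CPM in isotype libraries. Of the 8 striated muscle markers 7 had positive fold changes (median 0.91), with sums of 67652 to 101957 CPM in DTA-1 and 31784 to 62542 CPM in isotype libraries. The 6 macrophage markers all had negative fold changes (median -0.41), summing to 103 to 254 CPM in DTA-1 and 97.7 to 369.6 CPM in isotype libraries, and the 6 smooth muscle markers were split evenly, with a median of -0.01. All 6 B lineage markers had positive fold changes (median 2.46), summing to 8.35 to 58.7 CPM in DTA-1 and 1.22 to 23.9 CPM in isotype libraries, and so did the 5 adipocyte markers tested (median 1.16), at 244 to 1395 CPM and 142 to 482 CPM. Those 5 of the 6 T cell markers that were tested were negative (median -0.75). The T cell markers were scarce, with overlapping sums of 2.52 to 5.61 CPM in DTA-1 and 4.73 to 8.90 CPM in isotype libraries. The 6 fibroblast markers were split evenly (median -0.39). No marker of these lists was at 0 in every library. With the striated muscle score as a covariate in edgeR the Tgm2 log2 fold change was 0.40 ± 0.40, and with the suprabasal squamous score 0.62 ± 0.43 (adjusted p of 0.999 and 0.979). The part of the other cell types in the Tgm2 level was not tested.

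Per kilobase of exonic sequence, which allows levels of different genes to be compared, Tgm2 made up 30.2%, 64.1% and 56.5% of the summed transglutaminase level in the DTA-1 libraries, against 23.1%, 12.6% and 17.4% in the isotype libraries. Each DTA-1 library exceeded each isotype library. The mean share was 50.3% ± 17.8 in DTA-1 and 17.7% ± 5.25 in isotype (SD over 3 libraries each), with an exact two-sided permutation p of 0.1, the smallest that 3 against 3 libraries allow. It was 0.25 after Benjamini-Hochberg adjustment over the 5 ratios and shares compared. Tgm3 took 42.5%, 18.1% and 21.1% in the DTA-1 libraries and 42.5%, 63.1% and 60.2% in the isotype libraries. The shares cover the 4 genes alone and are compositional, so a lower Tgm3 level raises the share of the others.

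**Figure D2:**
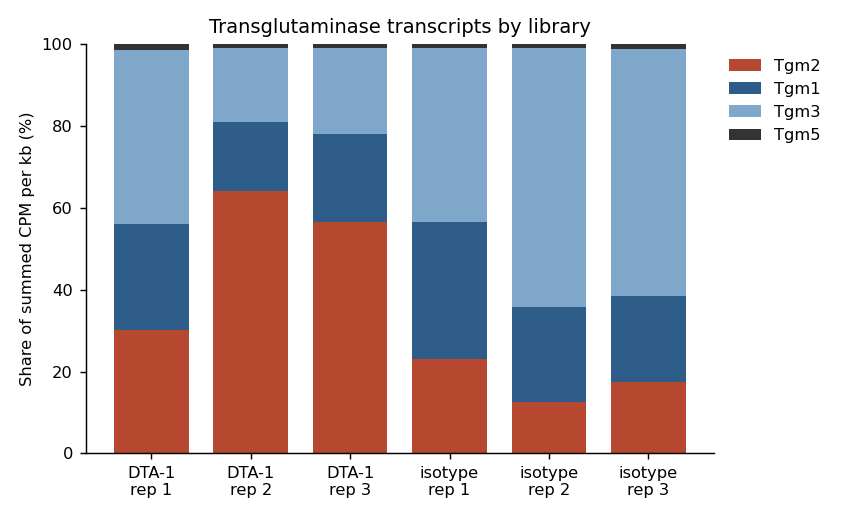
Share of each transglutaminase in the summed level of the 4 (CPM per kilobase of exonic sequence, percent), 1 bar per library with DTA-1 on the left. Tgm2 takes 30.2% to 64.1% of the DTA-1 bars and 12.6% to 23.1% of the isotype bars, and Tgm3 is the largest part in all 3 isotype bars and in DTA-1 replicate 1.

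Ratios within a library do not depend on its scaling. The log2 ratio of Tgm2 to Tgm1 was 1.72 ± 0.87 in DTA-1 and -0.02 ± 0.31 in isotype samples (SD, n = 3 each), with no overlap and an exact two-sided permutation p of 0.1, 0.25 after adjustment over the same 5. The log2 ratio of Tgm1 to Tgm3, the membrane-bound over the cytosolic enzyme, was -0.65 ± 0.40 against -1.49 ± 0.65 (exact permutation p = 0.2, adjusted 0.333). Isotype replicate 1, at -0.73, lay among the DTA-1 values of -1.10 to -0.36, so the balance of these enzymes did not separate the groups.

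Evpl and Ppl encode envoplakin and periplakin, the rod-shaped plakins that pair as the first scaffold of the envelope and join it to desmosomes and keratin. Evpl (ENSMUSG00000034282, chr11:116220559-116238077) stood at 219, 90.6 and 79.1 CPM in the DTA-1 libraries, against 348, 280.1 and 265 CPM in the isotype libraries. Ppl (ENSMUSG00000039457, chr16:5086291-5132421) stood at 269.6, 149 and 102 CPM in the DTA-1 libraries, against 336, 384 and 399 CPM in the isotype libraries. For both genes the groups did not overlap, with DTA-1 replicate 1 the nearest to the isotype range. The log2 fold changes were -1.20 ± 0.40 for Evpl and -1.10 ± 0.35 for Ppl (edgeR adjusted p of 0.39 for both).

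The proportion of the plakins to each other did not separate the groups. The log2 ratio of Evpl to Ppl was -0.46 ± 0.22 in DTA-1 and -0.33 ± 0.34 in isotype samples (SD, n = 3 each; exact two-sided permutation p = 0.7), a difference of -0.13 that lies within the spread of either group. Isotype replicate 1 was the one library with slightly more Evpl than Ppl reads, at 0.05.

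The proteases were the members with the largest differences beside Tgm3. Asprv1 encodes a retroviral-like aspartic protease of the upper layers that cleaves profilaggrin in skin (ENSMUSG00000033508, chr6:86628164-86629710). It stood at 141, 116 and 145 CPM in the DTA-1 libraries, against 251, 758 and 653 CPM in the isotype libraries. The DTA-1 libraries varied by a coefficient of variation of 11.5% around their mean, and DTA-1 replicate 1 was as low as the others, unlike in the other 8 lower genes; the isotype libraries varied by 48.3%, replicate 1 being the low one. The log2 fold change was -2.05 ± 0.41, ranking 30th by p among the 15763 genes, with an edgeR adjusted p of 0.39.

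By DESeq2 Asprv1 fell, with an adjusted p of 0.00104. DESeq2 kept that call without each library in turn, at adjusted p between 1.31e-20 (without isotype replicate 1, the low one) and 0.0467. Those fits called from 41 of 16979 genes (without DTA-1 replicate 2) to 2449 of 15304 (without DTA-1 replicate 1). edgeR did not call Asprv1 in any fit without 1 library, at adjusted p of 0.0866 to 0.859. Relative to the mean of the 8 other lower genes, Asprv1 stood at -0.30, 0.96 and 1.02 (log2) in the DTA-1 libraries and at 0.38, 1.70 and 1.42 in the isotype libraries. That comparison was chosen after its values were seen and is a description: replicate 1 of each group is low and the groups overlap.

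Casp14 encodes a caspase of terminal keratinocyte differentiation that also acts on profilaggrin (ENSMUSG00000005355, chr10:78711991-78718294). It stood at 39.3, 9.61 and 17.1 CPM in the DTA-1 libraries, against 28.5, 76.1 and 84.6 CPM in the isotype libraries. DTA-1 replicate 1 exceeded isotype replicate 1, so the groups overlapped. edgeR gave a log2 fold change of -1.52 ± 0.59, with an edgeR adjusted p of 0.39.

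Cnfn encodes cornifelin, a small protein of the mature envelope, and per kilobase it was the most abundant of the 10 genes. It lies on chromosome 7 (ENSMUSG00000063651, chr7:25367620-25369724). It stood at 446, 196 and 301 CPM in the DTA-1 libraries, against 695, 761 and 619.9 CPM in the isotype libraries. The groups did not overlap, and the log2 fold change was -1.14 ± 0.32, with an adjusted p of 0.39 by edgeR and 0.0551 by DESeq2. Sbsn encodes suprabasin, a secreted transglutaminase substrate (ENSMUSG00000046056, chr7:30751471-30756134). It stood at 240.03, 67.6 and 103 CPM in the DTA-1 libraries, against 267, 219.8 and 241 CPM in the isotype libraries. DTA-1 replicate 1 was level with the isotype libraries and the other DTA-1 libraries were well below them. edgeR gave a log2 fold change of -0.82 ± 0.44, with an edgeR adjusted p of 0.43.

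Per kilobase of exonic sequence the order of levels placed Tgm2 differently in the groups. In DTA-1 libraries Cnfn came first with 437 ± 174 CPM per kilobase (SD, n = 3), then Tgm2 with 118 ± 7.32 and Asprv1 with 86.7 ± 9.98, and Cnfn and Tgm2 did not overlap with the gene that followed. From Asprv1 down, neighbours in that order (Tgm3, Tgm1, Sbsn, Ppl, Evpl, Casp14 and Tgm5) had overlapping ranges. In isotype libraries Cnfn stood at 963 ± 98.4 CPM per kilobase, followed by Asprv1 with 358 ± 173 and Tgm3 with 250.4 ± 81.4, whose ranges overlapped. Tgm1 came next with 112 ± 9.45 CPM per kilobase and Tgm2 after it with 77.0 ± 16.6, overlapping with Sbsn at 66.9 ± 6.49. Tgm5 was last in both groups, with 2.97 ± 2.04 CPM per kilobase in DTA-1 and 5.08 ± 1.52 in isotype libraries.

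The lower genes fell into 2 kinds of profile by eye, a description made after the values were seen. Tgm1, Ppl, Sbsn, Cnfn and Evpl were even across the isotype libraries, with coefficients of variation of 8.42% to 14.96%. Tgm5, Tgm3, Casp14 and Asprv1 varied more there, by 29.9% to 48.3%, with isotype replicate 1 the lowest each time. Squamous markers were split in isotype replicate 1. Of the 6 suprabasal markers, Krt4 and Krt13 were lowest of the isotype libraries there, Krt6a and Mal were highest, and the other 2 lay between. Of the 6 basal markers 5 were highest there and Krt15 was lowest.

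**Figure D3:**
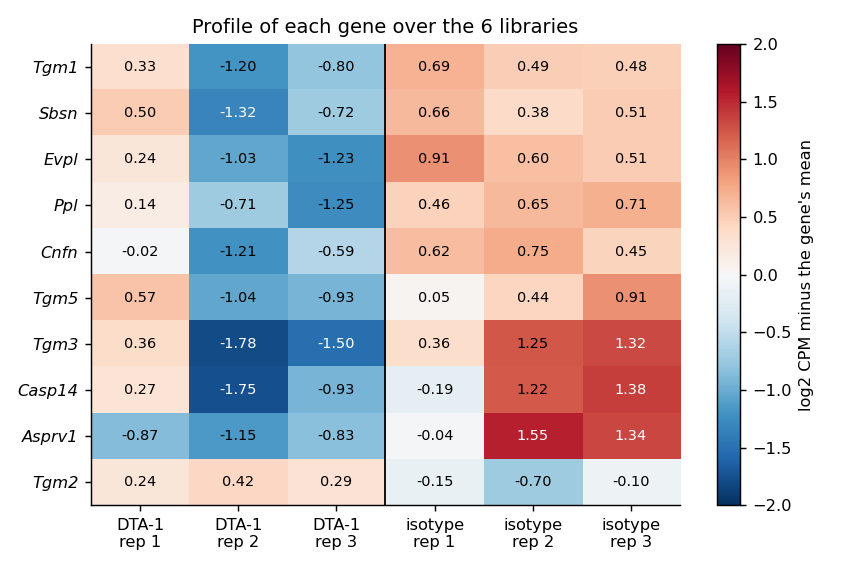
Deviation of each gene from its own mean over the 6 libraries (log2 CPM with a prior count of 2), DTA-1 libraries left of the black line and isotype libraries right of it. DTA-1 replicates 2 and 3 are below the mean for all 9 lower genes, DTA-1 replicate 1 is below it for Asprv1 (-0.87) and Cnfn (-0.02) alone, and Tgm2 runs the other way.

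Likeness of profile was measured as the root-mean-square difference between centred log2 CPM over the 6 libraries, so that 0 means the same profile, among 13412 genes. Within the 10, the closest pair was Tgm1 and Sbsn, at 0.106, followed by Tgm1 and Cnfn at 0.201 and Tgm1 and Evpl at 0.216. Ppl was nearest to its partner Evpl, at 0.244, and Tgm3 to Casp14, at 0.328. Among all genes compared, Evpl ranked only 135th in nearness to Ppl, and Casp14 24th in nearness to Tgm3. Asprv1 was 0.549 from its nearest member, Casp14, and Tgm2 1.01 from its nearest, Tgm5. The distances over 6 libraries are a description.

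The genes of nearest profile were named for each member. Nearest to Tgm3 were Krt13, the main suprabasal keratin of the esophagus (0.133), and the metallothionein gene Mt4 (0.141). Nearest to Cnfn were S100a7a (0.052) and Crct1 (0.102), both of the epidermal differentiation complex. Nearest to Tgm1 were Bnipl (0.064) and the kallikrein gene Klk8 (0.073), nearest to Tgm5 were the differentiation factor Klf4 (0.13996) and Map7 (0.160), and nearest to Evpl were the adhesion gene Nectin4 (0.073) and Tmem102 (0.079).

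Those of Ppl were the receptor gene Epha1 (0.060) and the serine protease gene Tmprss4 (0.065). Near to Casp14 was Ttpa (0.131), and those of Sbsn were Cdca2 (0.102) and Fchsd1 (0.103). Those of Asprv1 were the ion transporter gene Slc26a9 (0.208) and the late cornified envelope gene Lce1h (0.232), farther off than for any other member. Nearest to Tgm2 were Traf3ip3 (0.070) and the muscle integrin gene Itga7 (0.077).

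Promoter sequence was available for 7 of the 10 genes in the RefSeq table (GRCm38.p6), with 2 start sites for Tgm1; Tgm2, Evpl and Ppl had no entry. The 250 bases before the start of Asprv1, Tgm3 and Cnfn are shown because these genes had the largest differences (Asprv1 and Tgm3) or the highest level per kilobase (Cnfn). Capitals mark matches to any of 4 motifs, each searched on both strands. The AP-1 motif was spelled TGANTCA. The motif of Grainyhead-like factors was spelled AACNGGTT. The GC box was spelled GGGCGG, and the TATA box was spelled TATAAA. The windows are Asprv1 at chr6:86627924-86628173 (plus strand), Tgm3 at chr2:130012090-130012339 (plus strand) and Cnfn at chr7:25369725-25369974 (minus strand), each written 5′ to 3′ along the gene.
Asprv1: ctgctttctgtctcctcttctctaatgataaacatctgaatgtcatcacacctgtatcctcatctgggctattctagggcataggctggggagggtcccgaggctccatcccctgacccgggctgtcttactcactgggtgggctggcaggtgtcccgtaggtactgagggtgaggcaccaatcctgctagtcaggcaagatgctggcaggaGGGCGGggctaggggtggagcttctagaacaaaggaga
Tgm3: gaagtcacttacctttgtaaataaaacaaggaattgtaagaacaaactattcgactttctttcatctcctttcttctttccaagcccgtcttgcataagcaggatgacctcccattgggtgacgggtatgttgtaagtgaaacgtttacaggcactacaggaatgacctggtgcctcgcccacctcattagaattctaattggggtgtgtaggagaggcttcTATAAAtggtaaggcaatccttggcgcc
Cnfn: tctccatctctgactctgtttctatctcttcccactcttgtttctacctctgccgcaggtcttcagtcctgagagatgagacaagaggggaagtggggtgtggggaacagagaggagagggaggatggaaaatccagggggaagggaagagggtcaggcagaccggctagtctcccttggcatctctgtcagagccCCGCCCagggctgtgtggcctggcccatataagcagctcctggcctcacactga

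Matches to the 4 motifs in these promoters are given beside their shares over all promoter windows. The 8 member windows are too few to set apart from those shares. Asprv1 had a GC box starting 38 bases before its start, Cnfn 1 on the other strand at 54 bases, and Tgm3 a TATA box at 28 bases. Of the 8 member windows 3 held a GC box, as did 32.7% of 32851 promoter windows of the same length. A TATA box was in 1 of 8 (12.4% of all windows) and an AP-1 match in 1 of 8, that of Sbsn (6.75% of all windows). A Grainyhead-like match was in 0 of 8 (1.79% of all windows), which says only that these letters are not in these windows.

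Fold changes of the other envelope genes were mostly negative. Of 19 other envelope substrates 17 were tested and all 17 had negative fold changes (median -1.37), against 52.9% of all genes tested. Of these, 10 were at an unadjusted p under 0.05 by edgeR, against 7.52% of all genes tested that were lower at that level. The groups did not overlap for 9, against 9.38% of all genes tested with every DTA-1 library lower. The late envelope gene Lce3e averaged 37.5 ± 17.8 CPM in DTA-1 and 117 ± 28.4 CPM in isotype samples (SD, n = 3 each), the small proline-rich gene Sprr3 478 ± 215 against 1302 ± 426 CPM, and the filaggrin relative Hrnr 11.1 ± 5.37 against 35.6 ± 18.0 CPM. DESeq2 called 2 of the 17, Lor and Lce3e (adjusted p of 0.0231 for Lce3e), against 1.12% of all genes, and edgeR none. Late envelope genes have near-identical copies, so the Lce3e count is uncertain.

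Proteases, inhibitors and deiminases of the envelope were mostly lower. Of the 17 tested, 16 had negative fold changes (median -0.998), against 52.9% of all genes tested. The kallikrein gene Klk7, whose product sheds surface cells in skin, averaged 22.3 ± 8.02 CPM in DTA-1 and 63.6 ± 19.5 CPM in isotype samples (SD, n = 3 each). Klk7 was the 1 gene of the list that DESeq2 called (adjusted p of 0.0222), against 1.12% of all genes. The membrane protease gene Prss8 averaged 9.68 ± 2.73 against 20.9 ± 4.83 CPM, and Spint1, which encodes an inhibitor of such proteases, 36.9 ± 20.04 against 91.2 ± 14.1 CPM. In all 3, which were named for the smallest p in the list, the groups did not overlap. Every DTA-1 library was lower for 9 of the 17, against 9.38% of all genes tested.

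Among 12 regulators of squamous differentiation 10 were negative in fold change (median -0.84), against 52.9% of all genes tested. Cebpa averaged 55.3 ± 16.9 CPM in DTA-1 and 98.2 ± 15.4 CPM in isotype libraries without overlap (SD, n = 3 each), and the Grainyhead-like genes Grhl1 and Grhl3 averaged 49.7 ± 37.7 and 49.1 ± 34.7 against 111 ± 17.9 and 116 ± 59.6 CPM, with overlap. None passed edgeR or DESeq2.

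Genes of the 2 lists outside the envelope proper were more mixed. Of 9 other plakins and plaque proteins 7 had negative fold changes (median -0.77), against 52.9% of all genes tested. None was at an unadjusted p under 0.05. Pkp3 and Jup, which encode desmosomal plaque proteins, averaged 159 ± 115 and 531 ± 326 CPM in DTA-1 against 300.04 ± 35.3 and 908 ± 104 CPM in isotype libraries. Plec, the widely expressed plakin plectin that is also abundant in muscle, averaged 1202 ± 121 against 886 ± 163 CPM, with no overlap (edgeR adjusted p of 0.439). Of the other transglutaminase family genes 3 were tested. F13a1, the subunit of the clotting transglutaminase, averaged 36.0 ± 11.6 CPM in DTA-1 and 35.0 ± 11.1 CPM in isotype libraries, with a log2 fold change of 0.04 ± 0.32. Tgm4 and Tgm6 averaged below 1 CPM in both groups, and their log2 fold changes of -0.03 ± 0.44 and 0.29 ± 1.20 were imprecise, Tgm6 having 0 to 31 reads per library. Tgm7 and Epb42 were under the filter on low counts.

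**Figure D4:**
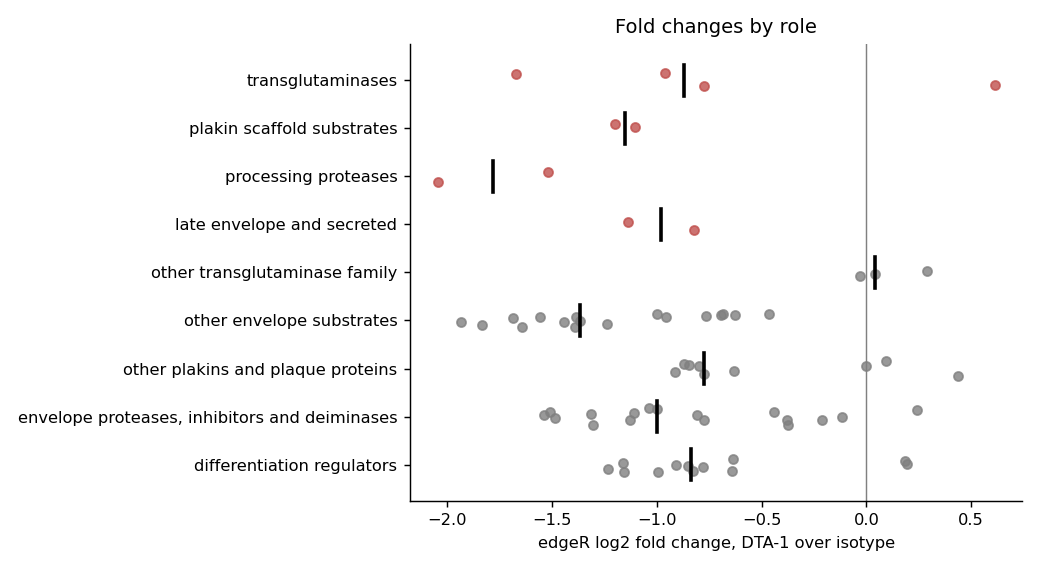
edgeR log2 fold change (DTA-1 over isotype) of every tested gene, by role; red points are the 10 genes described, grey points the other pathway genes, and black bars are list medians. All 17 other envelope substrates are left of 0, the 3 other transglutaminase family genes lie between -0.03 and 0.29, and Tgm2 is the red point right of 0.

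Squamous epithelium markers were lower on average too. For comparison, 52.9% of all genes tested had negative fold changes. All 6 suprabasal squamous markers had negative fold changes (median -1.26), and their sum was 5029 to 19035 CPM in DTA-1 and 18489 to 35044 CPM in isotype libraries. All 6 basal squamous markers did too (median -0.89), with sums of 3128 to 10741 CPM against 4349 to 16266 CPM. No marker of either list was at 0 in every library. The mean of the 9 lower genes relative to that of the suprabasal markers was -2.32 ± 0.35 (log2) in DTA-1 and -2.29 ± 0.37 in isotype samples (SD, n = 3 each), a difference of -0.04 with an exact two-sided permutation p of 1.

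A fit with the suprabasal squamous score as a covariate gave each gene's difference at equal score. Under it the median log2 fold change of the 10 genes was -0.01, and none passed edgeR. Tgm1, Evpl and Ppl were near 0 (0.07 ± 0.43, 0.04 ± 0.30 and -0.06 ± 0.34), and Tgm5 and Sbsn were positive (0.43 ± 0.54 and 0.31 ± 0.49). Tgm3, Casp14 and Cnfn stayed negative but nearer 0 (-0.31 ± 0.73, -0.59 ± 0.90 and -0.57 ± 0.51). Asprv1 kept its size at -2.21 ± 0.80, with an unadjusted p of 0.0335 and an adjusted p of 0.979. The score was 0.17, -0.85 and -1.30 in the DTA-1 libraries, against 0.80, 0.53 and 0.66 in the isotype libraries. These do not overlap, so score and treatment cannot be told apart. With the striated muscle score as covariate instead, the median of the 10 genes was -0.67. Tgm1 (-0.26 ± 0.65), Sbsn (-0.09 ± 0.75), Evpl (-0.47 ± 0.69) and Cnfn (-0.47 ± 0.49) were nearer 0 there too. Tgm3, Tgm5, Ppl, Casp14 and Asprv1 stayed between -0.87 and -2.62. The muscle score did not overlap between groups either (0.26 to 0.67 in DTA-1, -0.73 to -0.01 in isotype libraries).

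**Figure D5:**
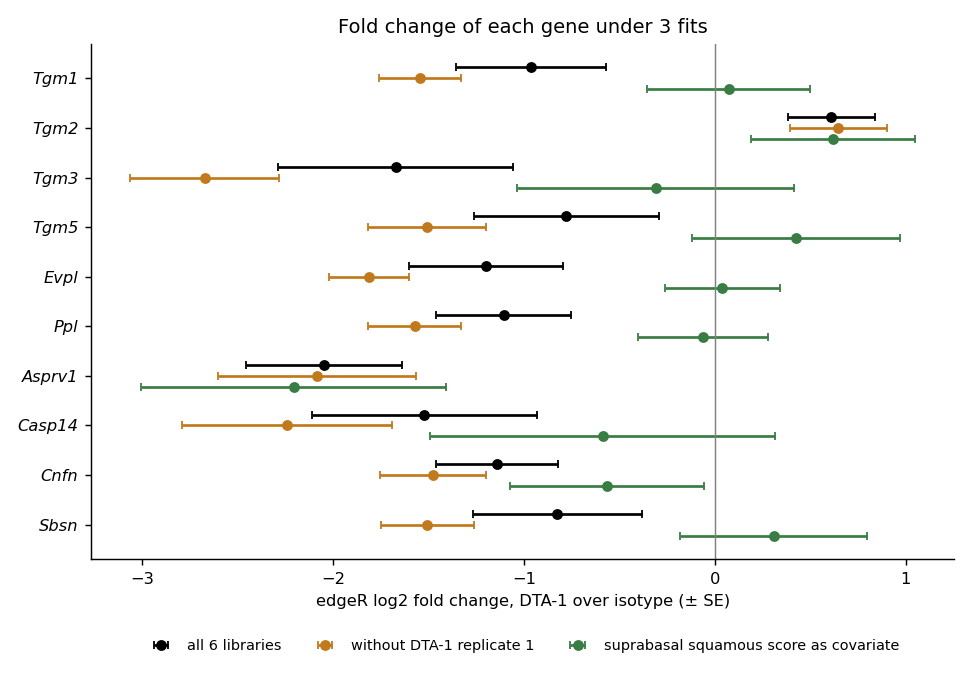
edgeR log2 fold change of each gene, DTA-1 over isotype, with its SE, under 3 fits: all 6 libraries (black), without DTA-1 replicate 1 (orange) and with the suprabasal squamous score as covariate (green). Without DTA-1 replicate 1 the 9 lower genes lie between -1.48 and -2.67, with the squamous score 8 of them lie within 0.6 of 0, Asprv1 stays at -2.21, and Tgm2 stays between 0.61 and 0.65.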

How the data were processed

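PolyA RNA of 6 esophagus samples was sequenced, and the authors deposited 1 table of unnormalized read counts per Ensembl gene for each. Build mm10 and the tools HTSeq 0.6.1p1, STAR, cutadapt 1.13 and DESeq2 1.14.1 are named per the submitters' processing notes; settings, such as the strand option, are not stated there. Symbols and positions come from GENCODE M21 (GRCm38, the assembly named mm10).

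Genes passing filterByExpr (minimum count 10, minimum total 15) were scaled by TMM and tested with edgeR 4.0.16 in R 4.3.3 (robust quasi-likelihood test, treatment as sole term, Benjamini-Hochberg adjustment over all genes at 0.05). An SE is the fitted log2 coefficient divided by the root of F. Alternatives were limma-voom (limma 3.58.1) and DESeq2 1.42.0, and ratios used log2(CPM + 0.5). Levels per kilobase use the union of a gene's exons. All 10 genes passed the filter and are named whatever their values; of each pathway list the 3 tested genes with the smallest p, and for each of the 10 genes the 2 nearest profiles, are named, except 1 gene near Casp14 that is not reported here. Other genes, such as the keratins, were named after their values were seen. The genes and lists were chosen with earlier results of these data known. Every pair of libraries differed by more than counting noise (smallest median chi-square per gene 3.98, against 0.455 for noise). That smallest value was between DTA-1 replicate 1 and isotype replicate 3. DTA-1 replicate 1 gave 10.5 and 14.1 against DTA-1 replicates 2 and 3. Against isotype replicates 1 and 2 it gave 11.3 and 10.6. The fits were tested on simulated data, in which edgeR made fewer false calls than DESeq2 and recovered fewer of the changed genes.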

Additional observations from a re-analysis of the deposited data

How the results depend on the processing

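Over 25 alternative fits (other scalings, filters, tools and covariates, the replicate number as a block, and libraries left out), 246 of 250 log2 fold changes of the 10 genes kept their direction. The 4 that turned did so with the suprabasal squamous score as covariate: Tgm1 (0.073), Tgm5 (0.43), Evpl (0.040) and Sbsn (0.31), where the median of the 10 genes was -0.011; the cause was not tested. DESeq2 called 180 genes, 1 of the 10 among them. Leaving out 1 library gave 0 to 2449 genes over edgeR and DESeq2, 0 to 9 of the 10 among them, and put the median of the 10 between -1.56 and -0.87; without DTA-1 replicate 1 edgeR called 601 and DESeq2 2449 genes, and DESeq2 called 41 when DTA-1 replicate 2 or 3 was left out, 56 when isotype replicate 2 was, and 896 when isotype replicate 3 was. Deviations of same-numbered libraries from their group means had correlations of 0.017, -0.33 and -0.086 for replicates 1, 2 and 3. Those of different-numbered libraries ran from -0.18 to 0.36. With 3 libraries a group these values cannot settle whether the number pairs the libraries, and the labels do not say. With the replicate block edgeR called 0 genes (median of the 10 -1.22). DESeq2 with that block called 242 genes, 4 of the 10 among them (Tgm3, Evpl, Asprv1 and Cnfn). The sign-flip test over replicate numbers gave p of 0.25 to 1 for the 5 ratios and shares. The smallest p that 3 differences allow in that test is 0.25. Groups did not overlap for 6 of the 10 genes (18% of all genes tested), for 6 with RLE scaling (18.1%), 7 with library totals (18.5%) and 6 to 10 without 1 library (20.6% to 45.4%). The 10 of 10 came without DTA-1 replicate 1, where 45.4% of all genes did not overlap. Without 1 library the Evpl to Ppl difference ranged from -0.26 to 0.065 (positive only without isotype replicate 1), that of the 9 lower genes to the suprabasal markers from -0.25 to 0.14, Tgm1 to Tgm3 from 0.63 to 1.22, Tgm2 to Tgm1 from 1.37 to 2.22, and the Tgm2 share from 25.7 to 42.6 percentage points (33.8 with the longest coding transcript as length). The alternatives for the overlap count and the Tgm2 share were chosen after seeing the data. With 3 libraries a group, spread between libraries and not depth limits these results.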
